A study of Mus musculus with 19 samples.

Results

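The respiratory chain genes described here are the 45 genes named by symbol in a list of subunits, 13 of them encoded in mitochondrial DNA (mtDNA) and 32 in the nucleus. Each was found in the deposited table by matching its Ensembl row to a mouse symbol, and the rule itself uses no measured value. The list of genes was, however, chosen with earlier results of these data known. The table holds 55487 gene rows, of which 23696 had at least 1 count, and all 45 genes passed a filter on low counts that left 15138 genes for testing. The nuclear genes belong to complex I (15 genes), complex II (4 genes), complex III (6 genes) and complex IV (7 genes). The mtDNA genes belong to complex I (7 genes), complex III (1 gene), complex IV (3 genes) and complex V (2 genes).

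Hepatic stellate cells (HSCs), the vitamin A-storing cells of the liver that turn into scar-forming myofibroblasts, were sorted by their ultraviolet fluorescence from livers of healthy male Balb/c mice aged 23 to 24 weeks. Cells of the 0h group were not cultured (2 samples). The other groups were kept on collagen-coated plates in DMEM with 10% fetal bovine serum, with the medium changed at 3 and 24 h, and collected after 3, 6, 12 and 18 h (3 samples each), 24 h (2 samples) and 96 h (3 samples). No group carried an added allele or drug, so time in culture, the plate, the serum and the medium changes moved together. Replicate numbers (M1 to M3) are those of the sample titles, which do not say whether a number stands for an animal, a pool or a day. Numbers 2 and 3 are present at 0 h, numbers 1 and 2 at 24 h, and all 3 at the other times, and each sample stood for 2 technical repeats. The names of samples numbered 1 and 3 carry the same date and those numbered 2 another. All comparisons with 0 h share the same 2 samples of that group. The study describes its repeats as independent, and the p-values below measure only the spread between these samples, which may be technical. RNA was read as 3′ tags, single reads from the polyadenylated end of a transcript, without molecular identifiers.

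The respiratory chain passes electrons from NADH and succinate through complexes I to IV to oxygen, pumps protons across the inner mitochondrial membrane, and so drives ATP synthesis by complex V. Its subunits come from 2 genomes. The mtDNA is transcribed inside the organelle into long precursors that are cut into shorter messengers, while the nuclear subunits are made in the cytosol and imported. Complex II is the one complex with no mtDNA-encoded subunit. In HSCs, the passage from the quiescent to the myofibroblast state is known to come with a change in energy metabolism.

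Total counts per sample lay between 2073171 and 7690892 (median 4954915), so that a floor of 3 counts lay between 0.386 and 1.51 counts per 1000000 (CPM). Intervals and floors of this kind cover counting error only. The 12 stellate cell markers summed to between 32480 and 37890 CPM at 0 h, and all 12 were detected. At 0 h the 12 hepatocyte markers summed to between 3373 and 7378 CPM, the 12 liver endothelium markers to between 1006 and 1517 CPM, and the 12 Kupffer cell and leukocyte markers to between 389.2 and 468.6 CPM. The 6 cholangiocyte markers summed to between 26.58 and 34.15 CPM, with 3 of them at 0. In bulk RNA, fewer cells of a type and less RNA per cell cannot be told apart.

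The mtDNA genes are packed so tightly that reading frames share bases, and this bears on which gene a 3′ tag is counted for. In GRCm38.p6, mt-Nd4l and mt-Nd4 share 7 bases at chrM:10167-10173, and mt-Atp8 and mt-Atp6 share 43 bases at chrM:7927-7969, all on the plus strand. The stretches around both junctions are shown with the shared bases in capitals, 5′ to 3′.
end of mt-Nd4l and start of mt-Nd4: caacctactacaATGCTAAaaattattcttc
end of mt-Atp8 and start of mt-Atp6: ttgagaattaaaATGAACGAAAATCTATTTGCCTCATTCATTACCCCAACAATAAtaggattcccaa
The capitals open with the start codon of the downstream gene and close with the stop codon of the upstream one. A tag within the 43 shared bases therefore lies in both mt-Atp8 and mt-Atp6. The genes mt-Atp6 and mt-Co3 share 1 base, and mt-Nd5 and mt-Nd6 share 14 bases on opposite strands. Whether the counting used the strand is not given in the sources used here. Tags from the 14 bases shared by mt-Nd5 and mt-Nd6 therefore cannot be assigned to one of them. If the strand was not used, plus-strand tags from anywhere within mt-Nd6 would also have been counted for mt-Nd6.

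Of the 13 mtDNA genes, 7 also have an annotated near-identical copy in the nuclear genome, a stretch of mtDNA inserted in chromosome 1. The annotation lists there 7 unprocessed pseudogenes on the minus strand, from Gm28439 at chr1:24611535-24612410 to Gm29216 at chr1:24615706-24616197. Gm28437 repeats 783 bases of mt-Co3, Gm28661 681 bases of mt-Co2 and Gm10925 678 bases of mt-Atp6, each with 0 mismatches. Gm10222 repeats 294 bases of mt-Nd4l and Gm28439 the first 876 of the 1378 bases of mt-Nd4, again with 0 mismatches. Gm28438, the copy of mt-Nd3, shared 99.0% of its 31-base words with that gene, and Gm29216, a 492-base copy of part of mt-Co1, shared 97.2%. A stretch of 60 bases at or next to the end of 5 of these mtDNA genes is shown, 5′ to 3′, because 3′ tags come from transcript ends.
mt-Co3, bases 722 to 781, found letter for letter in Gm28437: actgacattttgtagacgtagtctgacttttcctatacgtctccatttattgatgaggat
mt-Atp6, bases 619 to 678, found letter for letter in Gm10925: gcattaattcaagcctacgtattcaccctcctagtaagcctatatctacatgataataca
mt-Co2, bases 622 to 681, found letter for letter in Gm28661: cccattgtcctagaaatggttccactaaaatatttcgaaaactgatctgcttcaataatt
mt-Co1, bases 1486 to 1545, found letter for letter in Gm29216: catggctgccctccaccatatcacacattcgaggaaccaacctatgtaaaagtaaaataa
mt-Nd4, bases 1316 to 1375, not found in Gm28439: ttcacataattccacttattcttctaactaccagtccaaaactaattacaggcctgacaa
A tag from within the first 4 of these stretches matches both places equally well, whereas one from the end of mt-Nd4 does not lie in its shorter copy. The ends of mt-Nd3 and mt-Nd4l were also found in their copies.

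In the counts, Gm28437 held 50% of the summed counts of itself and mt-Co3 in every sample, and the difference between their counts, copy minus mtDNA gene, lay between -43 and 14. For mt-Atp6 the copy held between 49.9% and 50%, for mt-Co2 between 49.7% and 49.9%, for mt-Nd4l between 49.3% and 50.2%, and for mt-Nd3 between 51.1% and 55.3%. For mt-Co1 it held between 32.5% and 38.2%, less than an equal part although the shown end of mt-Co1 lies in the copy, and for mt-Nd4 between 7.6% and 13.2%. Copies were searched only among annotated transcripts that shared at least 50 words of 31 bases, and at least 50% of their words, with a gene. By this search none was found for mt-Nd1, mt-Nd2, mt-Nd5, mt-Nd6, mt-Cytb and mt-Atp8. Parts of the insertion outside annotated genes were not searched. The last 43 bases of mt-Atp8 open mt-Atp6, which Gm10925 repeats from its first base, so tags there match chromosome 1 too. The 7 copies together held 849925 counts, 24.1% of the counts of the mtDNA genes and the copies, with a range of 20.1% to 27.1% over samples. The counts do not show whether a read matching both places was counted at each or divided between them, so the levels of these genes are uncertain by that much. With the counts of the copies added to their genes, all 13 mtDNA genes were called lower at each time against 0 h, as they were without them.

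**Figure D1:**
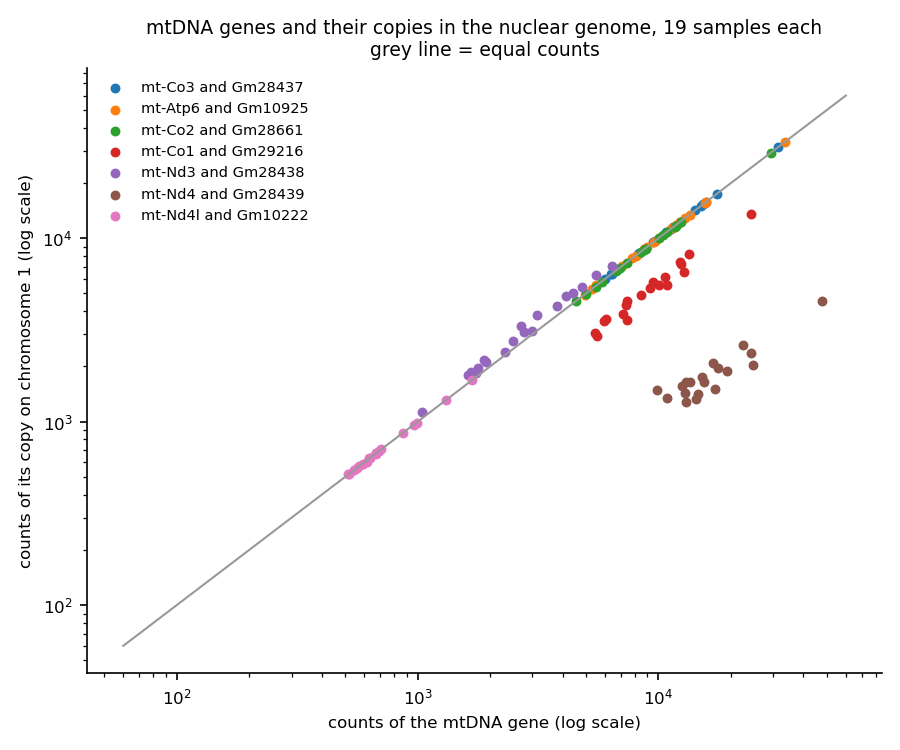
Counts of each mtDNA gene (horizontal, log scale) against the counts of its copy on chromosome 1 (vertical, log scale), one point per sample for 19 samples and 7 pairs. Points of mt-Co3, mt-Atp6, mt-Co2 and mt-Nd4l lie on the grey line of equal counts, those of mt-Nd3 lie just above it, and those of mt-Co1 and mt-Nd4 lie below it.

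All 13 mtDNA-encoded genes fell at every time in culture against 0 h. Their median log2 fold changes were -1.19, -1.41, -1.95, -2.13, -2.18 and -1.73 after 3, 6, 12, 18, 24 and 96 h. The median of all genes tested lay at 0 until 24 h and at 0.07 after 96 h. On a linear scale the median gene of the 13 was 2.28-fold lower after 3 h, 3.86-fold after 12 h, 4.53-fold after 24 h and 3.32-fold after 96 h. Calls were made where the adjusted p of edgeR's quasi-likelihood test over all 15138 genes was below 0.1. All 13 genes were called lower at each of the 6 times. Of all tested genes, 1.52%, 4.68%, 9.58%, 8.79%, 4.1% and 5.44% were called lower after 3, 6, 12, 18, 24 and 96 h. At 3 h, 7 of the 13 were called without the 0h sample of replicate 2, 7 without the 3h sample of replicate 2 and 8 without the 3h sample of replicate 3. For each of the 13 genes, no sample at any of the 6 culture times overlapped the 0h samples. Of all genes tested, 18%, 21.2%, 22.9%, 21.3%, 22.7% and 19.7% lay wholly below the 0h samples after 3, 6, 12, 18, 24 and 96 h. The mtDNA genes were also measured more evenly than most genes, with a median biological coefficient of variation of 0.19 (range 0.158 to 0.332) against 1.036 over all genes tested.

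Of the 7 subunits of complex I that form the core of its membrane arm, mt-Nd1 (ENSMUSG00000064341, chrM:2751-3707) had 13370 and 12450 CPM at 0 h (replicates 2 and 3), scaled by trimmed mean of M-values (TMM). It had 5598, 4096 and 5090 CPM at 3 h, 4036, 3799 and 3601 at 6 h, 2685, 2806 and 3139 at 12 h and 2576, 2730 and 2572 at 18 h (replicates 1, 2 and 3), then 3223 and 2997 at 24 h (replicates 1 and 2) and 5119, 5500 and 3656 at 96 h. The 0h samples stood far above the rest, the lowest values came at 12 and 18 h, and the 96h samples lay above the 18h samples. Its log2 fold change was -2.17 ± 0.16 (SE), adjusted p = 3.19e-07 at 12 h and -1.44 ± 0.16 (SE), adjusted p = 2.15e-05 at 96 h against 0 h. In the same order of samples, mt-Nd2 had 20530 and 21960 CPM at 0 h, 12070, 9389 and 6797 at 3 h, 6341, 11040 and 4808 at 6 h, 5651, 3384 and 3541 at 12 h. Later values were 5447, 3065 and 4908 CPM at 18 h, 4464 and 3925 at 24 h and 7456, 5315 and 8180 at 96 h. Its samples spread more within a time, with replicate 2 at 6 h near the 3h samples, and the change at 12 h was -2.34 ± 0.34 (SE), adjusted p = 0.00016. For mt-Nd4 the 0h samples had 11920 and 12170 CPM, the 12h samples 3026, 2437 and 2990 and the 96h samples 3701, 3309 and 2277. All samples of 12 and 96 h lay far below 0 h, and the 12h and 96h groups overlapped. The change of mt-Nd4 was -2.10 ± 0.20 (SE), adjusted p = 2.16e-06 at 12 h and -1.96 ± 0.20 (SE), adjusted p = 6.92e-06 at 96 h.

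For mt-Nd3, another subunit of this arm, most of the drop was present at 3 h. It had 1613 and 1255 CPM at 0 h, 577.9, 551.8 and 649.7 at 3 h, 570.1, 536.3 and 803.9 at 6 h, 411.6, 700.3 and 735.9 at 12 h. Later it had 459.9, 662.9 and 515 CPM at 18 h, 358.7 and 620.4 at 24 h and 299.7, 603.7 and 272.7 at 96 h. After the drop to 3 h its samples overlapped between all later times, and its replicate 2 samples stood above those of replicate 1 from 12 h on. Its change against 0 h was -1.27 at 3 h, -1.22 at 12 h and -1.87 at 96 h on the log2 scale, all called (adjusted p = 0.043, 0.0231 and 0.00178 by edgeR). The gene mt-Nd6 is the one mtDNA member read from the other strand. Because the strand setting of the counting is not known, its counts may include tags of the plus strand. It had 1670 and 1712 CPM at 0 h, 680.1, 488.5 and 461.1 at 3 h, 552.5, 433.2 and 568.3 at 12 h, 495.5, 344.6 and 394.9 at 18 h and 862.1, 929.6 and 665.4 at 96 h. It reached its 12h level already at 3 h (12 h against 3 h: -0.07 ± 0.20 (SE), adjusted p = 0.906) and lay higher at 96 h than at 3 h (0.59 ± 0.20 (SE), adjusted p = 0.064), although single samples of those 2 groups overlapped. The remaining complex I genes were mt-Nd5 with 2083 and 2237 CPM at 0 h and 793.1, 458.4 and 420.9 at 12 h, and mt-Nd4l with 423.8 and 501.1 CPM at 0 h and 137.4, 104.5 and 116.2 at 12 h. Both lay apart from 0 h in every sample, and both had a larger spread between replicates than mt-Nd1.

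Cytochrome b of complex III, mt-Cytb, had 10500 and 8254 CPM at 0 h, 5152, 3990 and 4476 at 3 h, 4131, 4156 and 3071 at 6 h, 2426, 2587 and 2712 at 12 h. Then it had 2048, 2046 and 2331 CPM at 18 h, 1884 and 1993 at 24 h and 2724, 2587 and 2230 at 96 h. The group means went down at each time to 24 h, and the 96h samples lay near those of 12 and 18 h. Its change was -1.86 ± 0.16 (SE), adjusted p = 9.76e-07 at 12 h and -1.90 ± 0.16 (SE), adjusted p = 1.14e-06 at 96 h against 0 h.

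The 3 catalytic subunits of complex IV, cytochrome c oxidase, were also called lower at all times. For mt-Co1 the values were 6055 and 4756 CPM at 0 h, 2465, 2401 and 2326 at 3 h, 1372, 1434 and 1636 at 12 h, 1172 and 1389 at 24 h and 2123, 2381 and 2160 at 96 h. At 96 h every sample of mt-Co1 stood above every sample of 12 h. For mt-Co2 the values were 7381 and 5955 CPM at 0 h, 2308, 2122 and 2281 at 3 h, 1270, 1486 and 1653 at 12 h, 1073 and 1298 at 24 h and 1670, 2245 and 1464 at 96 h. For mt-Co3 they were 7853 and 5642 CPM at 0 h, 4712, 3764 and 3797 at 3 h, 1899, 1832 and 2043 at 12 h, 1367 and 1488 at 24 h and 1836, 2214 and 2066 at 96 h. The 3h samples of mt-Co3 stayed nearer to its 0h samples than those of mt-Co2 did to theirs. The log2 fold changes at 3 h were -1.58 ± 0.18 (SE), adjusted p = 4.68e-05 for mt-Co2 and -0.72 ± 0.16 (SE), adjusted p = 0.0157 for mt-Co3, whose difference was not tested. At 12 h they were -1.87 for mt-Co1, -2.18 for mt-Co2 and -1.81 for mt-Co3.

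The 2 mtDNA-encoded subunits of complex V sit in the membrane part of the ATP synthase. For mt-Atp6 the values were 8432 and 5954 CPM at 0 h, 3779, 2947 and 2947 at 3 h, 2595, 3103 and 2354 at 6 h, 1639, 1706 and 2105 at 12 h. Later values were 1348, 1580 and 1449 CPM at 18 h, 1137 and 1546 at 24 h and 1416, 1848 and 1357 at 96 h. From 18 h on its samples overlapped, so that no return was seen at 96 h (-2.22 ± 0.20 (SE), adjusted p = 2.84e-06 against 0 h). For mt-Atp8 the values were 202.6 and 218.4 CPM at 0 h, 52.12, 40.03 and 43.9 at 12 h and 68.54, 65.45 and 47.33 at 96 h, with a change of -2.21 ± 0.36 (SE), adjusted p = 0.00046 at 12 h.

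**Figure D2:**
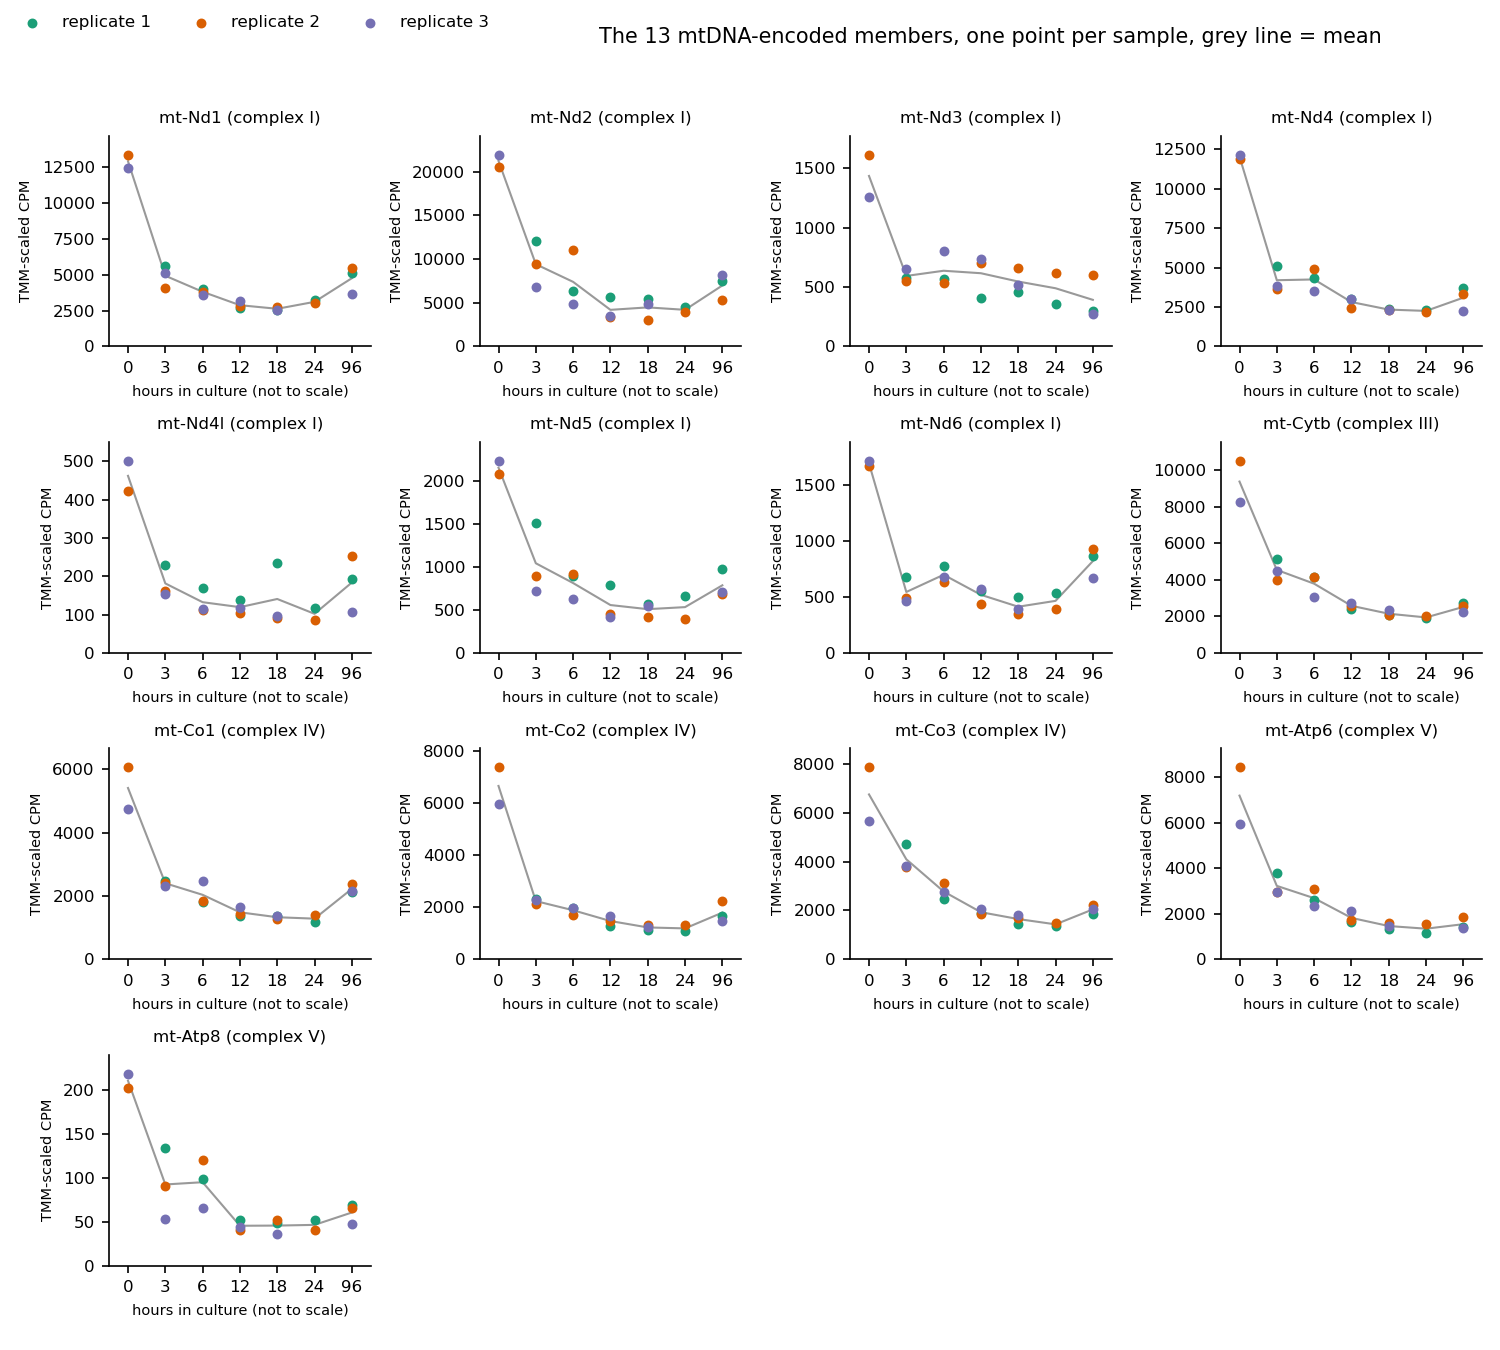
TMM-scaled CPM (vertical, linear from 0) of the 13 mtDNA-encoded genes against hours in culture (horizontal, evenly spaced and not to scale), one point per sample colored by replicate number, with a grey line through the group means. In every panel the 2 samples at 0 h lie above all 17 cultured samples.

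Several cell type markers also fell in culture, but not all at the times of the mtDNA genes. At 3 h the summed hepatocyte markers lay below their 0h range, while the stellate cell and endothelial sums did not. The median log2 fold change of the 12 stellate cell markers at 3 h was -0.11. The summed hepatocyte markers lay between 414.4 and 1267 CPM at 3 h, 87.21 and 422.9 at 6 h, 87.34 and 157.1 at 12 h and 42.28 and 111.6 at 96 h, with 3 of 12 at 0 in all samples of 12 and 96 h. The Kupffer cell and leukocyte markers lay between 224.6 and 410 CPM at 3 h, 25.21 and 50.42 at 6 h and 6.949 and 25.49 at 12 h, where 9 of 12 were at 0 and the Kupffer cell lectin gene Clec4f had no counts. The endothelial markers lay between 1243 and 3773 CPM at 3 h and 228.8 and 997.9 at 12 h, and the stellate cell markers between 33530 and 38550 CPM at 3 h, 5737 and 6764 at 12 h and 2864 and 3237 at 96 h. The hepatocyte gene Alb had 1813 and 4447 CPM at 0 h, 212.6, 259.6 and 609.8 at 3 h and 48.18, 23.4 and 111.7 at 12 h, and the stellate cell gene Lrat had 1074 and 735.1 CPM at 0 h, 467.1, 651.5 and 433 at 3 h and 0, 7.632 and 25.62 at 12 h. Other defining markers at 0 h and 12 h were the leukocyte gene Ptprc (15.3 and 0, then 0, 0 and 0 CPM), the endothelial genes Pecam1 (28.08 and 20.59, then 53.51, 14.75 and 16.95) and Stab2 (115.6 and 50.72, then 70.88, 0 and 20.55), and the stellate cell gene Des (125.1 and 120, then 26.87, 48.34 and 30.29). The part of each of these in the change of the mtDNA genes was not tested. Between 3 and 12 h, 10 of the 13 mtDNA genes fell again, with a median log2 fold change of -0.78 over the 13 genes, against 8.83% of all genes called lower and 7.89% called higher. The 3 not called were mt-Nd3 (0.05), mt-Nd6 (-0.07) and mt-Nd4l (-0.60).

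A partial return of some mtDNA genes was seen between 12 and 96 h. Called higher at 96 h were mt-Nd1 (0.73 ± 0.15 (SE), adjusted p = 0.00338), mt-Co1 (0.58 ± 0.14 (SE), adjusted p = 0.011) and mt-Nd6 (0.66 ± 0.20 (SE), adjusted p = 0.0402), and none of the 13 was called lower, where 7.74% of all genes were called higher and 7.74% lower. For these 3 genes the 96h samples lay wholly above the 12h samples, as for 19.2% of all genes tested. The other 10 had log2 fold changes between -0.65 (mt-Nd3) and 0.74 (mt-Nd2), and 1 of them had an unadjusted p below 0.05. Against 3 h, 3 genes were lower at 96 h, mt-Cytb (-0.85 ± 0.14 (SE), adjusted p = 0.0008), mt-Co3 (-1.0 ± 0.15 (SE), adjusted p = 0.00023) and mt-Atp6 (-1.07 ± 0.18 (SE), adjusted p = 0.000914), and mt-Nd6 was higher, with 8.51% of all genes called lower and 7.51% higher. The balance between single mtDNA genes therefore differed between times. The counts of mt-Nd1 were between 1.22 and 2.09 times those of mt-Atp6 up to 18 h, between 1.94 and 2.84 times at 24 h and between 2.69 and 3.62 times at 96 h. The 96h samples overlapped those of 24 h and lay above all earlier ones. This pair was chosen after its values were seen.

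Summed over the 13 genes, the mtDNA-encoded subunits took 8.22 and 7.98% of all counts at 0 h, 3.98, 3.04 and 3.03% at 3 h, 3.01, 3.33 and 2.62% at 6 h, 2.21, 1.94 and 2.11% at 12 h, 2.19, 1.9 and 2.12% at 18 h, 2.08 and 2.05% at 24 h and 2.93, 2.93 and 2.53% at 96 h. The 0h samples did not overlap any other, and the 96h samples lay above all samples of 12, 18 and 24 h. The 32 nuclear genes took 0.425 and 0.503% at 0 h, 0.245, 0.248 and 0.29% at 3 h, 0.325, 0.23 and 0.36% at 6 h, 0.451, 0.389 and 0.42% at 12 h, 0.488, 0.379 and 0.425% at 18 h, 0.644 and 0.498% at 24 h and 0.584, 0.81 and 0.685% at 96 h. Their lowest samples came at 3 and 6 h and the highest 2 at 96 h, and the 96h samples lay above both 0h samples. These shares compare samples and not genes, since tags count transcripts by their ends.

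The ratio of summed mtDNA-encoded to summed nuclear counts fell in its group mean at each time to 24 h, with 12 and 18 h close together. It was 19.31 and 15.85 at 0 h, 16.27, 12.28 and 10.46 at 3 h, 9.271, 14.51 and 7.272 at 6 h, 4.892, 4.988 and 5.042 at 12 h, 4.485, 4.998 and 4.993 at 18 h, 3.23 and 4.11 at 24 h and 5.014, 3.617 and 3.697 at 96 h. The 3h samples overlapped those of 0 h, the 6h samples spread from near the 3h values to near the 12h values, and the samples from 12 h on lay below all earlier ones. Among the samples numbered 3, which share a date, the changes in log2 ratio against 0 h were -0.6, -1.12, -1.65, -1.67 and -2.1 after 3, 6, 12, 18 and 96 h. Among those numbered 2 the changes were -0.65, -0.41, -1.95, -1.95 and -2.42 at the same times and -2.23 after 24 h. The direction was the same in each of these. The log2 difference of the nuclear sum, 96 h minus 0 h, was 0.7 among the samples numbered 2 and 0.38 among those numbered 3. With the near-identical copies added, the ratio was 24.7 and 19.57 at 0 h, between 6.141 and 6.689 at 12 h and between 4.537 and 6.076 at 96 h.

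**Figure D3:**
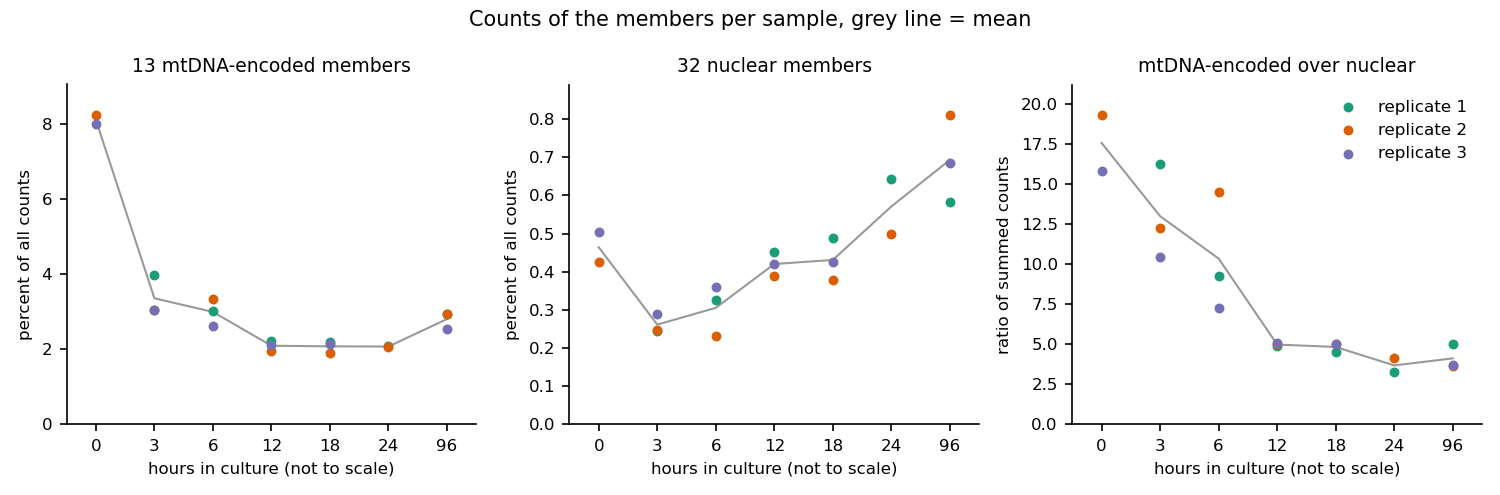
Percent of all counts from the 13 mtDNA-encoded genes (left) and from the 32 nuclear genes (middle), and the ratio of the 2 sums (right), each on a linear axis from 0 against hours in culture (evenly spaced, not to scale), one point per sample colored by replicate number with a grey line through the means. The mtDNA share falls from about 8.1% to 2.09% by 12 h, the nuclear share dips at 3 h and is highest at 96 h, and the ratio is at most 5.042 from 12 h on.

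The median change of the 32 nuclear genes was smaller than that of the mtDNA genes at each time, below 0 up to 18 h and above 0 afterwards, although single nuclear genes fell by more at 3 h. The difference between the groups was not tested. Their median log2 fold changes were -0.64, -0.8, -0.33, -0.28, 0.13 and 0.42 after 3, 6, 12, 18, 24 and 96 h. Over the 24 of them with counts in every library they were -0.55, -0.6, -0.18, -0.26, 0.1 and 0.33. After 3 h, 5 were called lower and 0 higher, with 4.67% of all genes called higher. After 6 h, 4 were lower and 0 higher, with 7.91% of all genes higher. After 12 h, 2 were lower and 1 higher (9.78% of all genes higher), and after 18 h, 3 were lower and 0 higher (8.67% of all genes higher). After 24 h, 0 were called by edgeR (6.12% of all genes higher), and 2 had an unadjusted p below 0.05. DESeq2 called 2 of the 32 at this time, and 2478 of all 15138 genes in either direction. After 96 h, 1 was higher and 0 lower, with 6.59% of all genes higher. Read against the shares of all genes called lower given above, the counts at 3 and 6 h were above the background, and those at 12, 18 and 96 h were near it or below it. These counts depended on single samples. Without the 0h sample of replicate 2 or of replicate 3, 3 nuclear genes were called at 3 h and 2 at 6 h, and without the 3h sample of replicate 2, 2 were called at 3 h. At 12 h, 1 was called without the 0h or the 12h sample of replicate 2. The number of nuclear genes whose samples all lay below 0 h was 17, 12, 7, 9, 4 and 0 of 32 after 3, 6, 12, 18, 24 and 96 h. Against the shares of all genes given above for the mtDNA genes (18% at 3 h and 21.2% at 6 h), these counts were above the background at 3 and 6 h and near it or below it at most later times. For 10 of 32 all 96h samples lay above 0 h, against 22.2% of all genes tested. Over all timepoints together, 12 of the 32 differed between times, against 27.4% of all genes tested. All 13 mtDNA genes did so too. The nuclear genes also varied more, with a median biological coefficient of variation of 0.366 (range 0.202 to 2.303) and therefore larger errors. The cell type markers given above also changed in culture, and their part in the nuclear changes was not tested.

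**Figure D4:**
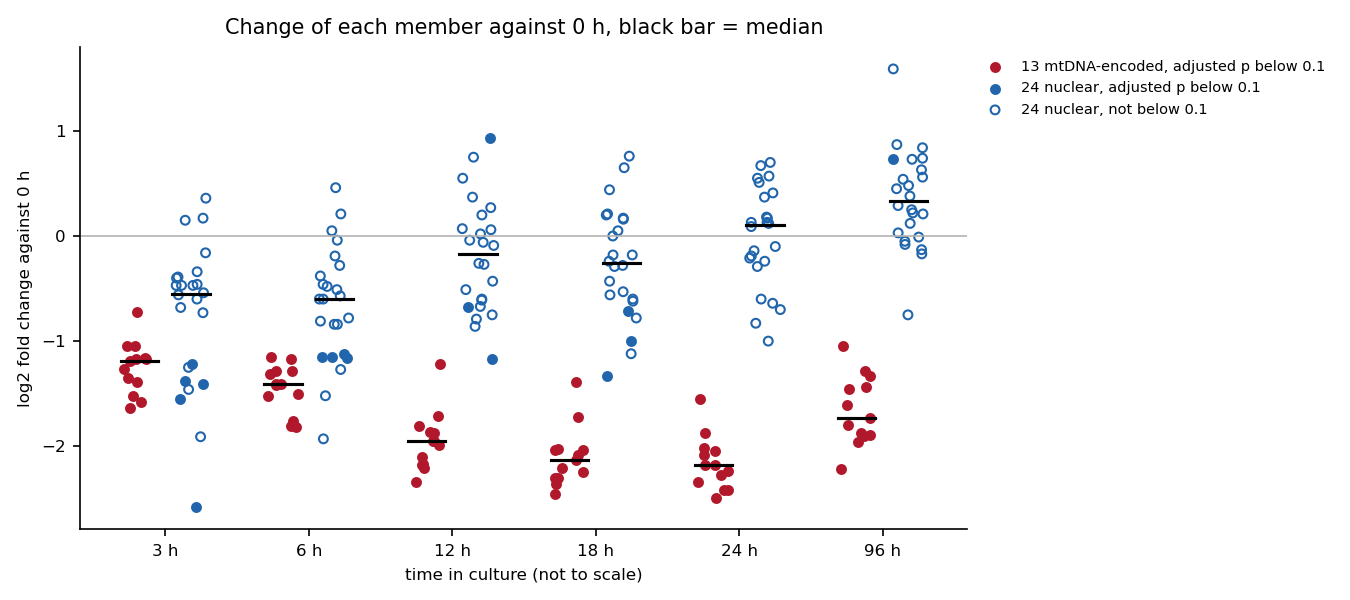
Log2 fold change against 0 h (vertical) of the 13 mtDNA-encoded genes (red) and of the 24 nuclear genes with counts in every library (blue) at each time in culture, one point per gene, filled where the adjusted p was below 0.1, with a black bar at the median. All 13 red points are filled and below 0 at each time, and the blue medians move from -0.55 at 3 h to 0.33 at 96 h.

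Among the accessory subunits of complex I, Ndufa1 is a small protein of the membrane arm encoded on the X chromosome. It had 235.2 and 342.5 CPM at 0 h, 105.5, 97.8 and 122.2 at 3 h, 191.3, 129.4 and 252.1 at 6 h, 237.4, 198.9 and 208.4 at 12 h. Later it had 205.7, 191.8 and 175.8 CPM at 18 h, 311.5 and 176.8 at 24 h and 343.6, 741.3 and 350.5 at 96 h. The 3h samples lay below all others, and replicate 2 at 96 h stood far above the other samples. It fell at 3 h (-1.41 ± 0.34 (SE), adjusted p = 0.0255) and rose from 12 to 96 h (1.15 ± 0.31 (SE), adjusted p = 0.0236). Ndufa4, named for complex I and since also assigned to complex IV, had 145.9 and 88.38 CPM at 0 h, 21.23, 9.348 and 28.31 at 3 h, 44.01, 74.79 and 113.3 at 12 h and 125.6, 252 and 141.8 at 96 h. It had the strongest drop of the nuclear genes called at 3 h (-2.58 ± 0.59 (SE), adjusted p = 0.0182), and its 96h samples overlapped those of 0 h. Ndufb9 had 96.79 and 194.3 CPM at 0 h, 65.35, 29 and 54.45 at 3 h, 104.9, 76.83 and 69.92 at 12 h and 147.1, 131.1 and 229.1 at 96 h, with a called drop at 3 h (-1.55 ± 0.40 (SE), adjusted p = 0.0363). Its 0h samples differed from each other by more than its 12h samples did.

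Ndufa2, a thioredoxin-fold subunit of the matrix arm, had 212.9 and 154.7 CPM at 0 h, 162.6, 119.8 and 117.2 at 3 h, 91.07, 112.1 and 169 at 6 h, 208.9, 123.1 and 195.6 at 12 h. It then had 177.4, 112.8 and 165.5 CPM at 18 h, 251 and 149.1 at 24 h and 333.8, 280.5 and 306.2 at 96 h. All 96h samples lay above all samples of the other times, and the gene rose from 12 to 96 h (0.80 ± 0.29 (SE), adjusted p = 0.0917) while against 0 h it was not called (0.74 ± 0.33 (SE), adjusted p = 0.204). Ndufb5 had 104.1 and 119.5 CPM at 0 h, 88.49, 63.26 and 47.5 at 12 h and 118.7, 222.5 and 177.5 at 96 h, and rose from 12 to 96 h (1.38 ± 0.35 (SE), adjusted p = 0.0171). The core subunits of the matrix arm, which carry the flavin and the iron-sulfur clusters, were not called at any time against 0 h. Ndufv1, which binds NADH, had 63.69 and 56.74 CPM at 0 h, 78.52, 88.87 and 50.3 at 12 h and 65.39, 78.15 and 90.96 at 96 h, with overlapping groups at 12 h. Ndufs3 had 75.72 and 33.14 CPM at 0 h, 11.61, 18.22 and 13.5 at 3 h, 3.263, 13.12 and 26.31 at 6 h, 33.82, 41.38 and 14.81 at 12 h and 26.1, 41.96 and 28.97 at 96 h. Its 3h and 6h samples lay below 0 h, but the log2 fold changes (-1.91 ± 0.76 (SE), adjusted p = 0.223 at 3 h and -1.93 ± 0.76 (SE), adjusted p = 0.137 at 6 h) had large errors. Of the 15 nuclear genes of complex I, 5 differed over all times, against 27.4% of all genes tested.

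Complex II, succinate dehydrogenase, is also an enzyme of the TCA cycle. Its flavoprotein gene Sdha had 122.9 and 140.1 CPM at 0 h, 96.54, 81.98 and 109.1 at 3 h, 75.05, 62.83 and 39.46 at 6 h, 75.28, 91.92 and 80.86 at 12 h. Later values were 57.52, 81.07 and 59.03 CPM at 18 h, 88.61 and 73.02 at 24 h and 100.9, 114.3 and 135.8 at 96 h. Every sample from 3 to 24 h lay below both 0h samples, with called drops at 6 h (-1.15 ± 0.29 (SE), adjusted p = 0.0159) and 18 h (-1.0 ± 0.29 (SE), adjusted p = 0.0302), and the 96h samples overlapped 0 h. The membrane anchor gene Sdhc had 138.4 and 166.2 CPM at 0 h and 102.3, 46.53 and 56.82 at 6 h, where it fell (-1.15 ± 0.39 (SE), adjusted p = 0.0847), and 92.65, 159.9 and 225.9 at 12 h, overlapping 0 h. The iron-sulfur subunit gene Sdhb went between no counts and high values within a time: it had 102.8 and 18.08 CPM at 0 h, 86.25, 0 and 0 at 3 h, 104.7, 75.16 and 0 at 6 h, 126.7, 102.6 and 80.06 at 12 h. Later it had 0, 53.69 and 7.076 CPM at 18 h, 167.6 and 103.5 at 24 h and 119.6, 79.11 and 120.6 at 96 h. The 4 libraries at 0 stood far under the others, given a floor of at most 1.51 CPM, and no direction is given for it. The second anchor gene Sdhd had 13.04 and 7.03 CPM at 0 h, 15.52, 11.53 and 15.75 at 12 h and 22.37, 43.31 and 9.601 at 96 h, with no call at any time.

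Of the 6 nuclear genes of complex III, 1 was called against 0 h, higher at 12 h, where 9.78% of all genes were called higher. Uqcrq, a small subunit near cytochrome b, had 139.4 and 282.7 CPM at 0 h, 139.7, 102.4 and 152.2 at 3 h, 239.1, 215.5 and 414.7 at 6 h, 507.5, 365.3 and 330.4 at 12 h. Then it had 395.8, 312.2 and 362.2 CPM at 18 h, 416.9 and 267.1 at 24 h and 236.9, 353.4 and 276.1 at 96 h. The 12h samples lay above both 0h samples and above all 3h samples, and the gene was called higher at 12 h against 0 h (0.93 ± 0.35 (SE), adjusted p = 0.0948) and against 3 h (1.61 ± 0.31 (SE), adjusted p = 0.00258). The first of these calls was lost with DESeq2 (log2 fold change 0.7), without the filter on low counts (0.87) and with the mitochondrial genes left out of the scaling (0.9) and with only the 0h and 12h samples in the fit (0.94). The core protein gene Uqcrc1 had 77.73 and 106 CPM at 0 h, 36.78, 27.04 and 50.42 at 6 h, 87.79, 28.83 and 63.78 at 12 h and 86.61, 76.8 and 97.36 at 96 h. Its 6h samples lay below 0 h without passing the test (-1.27 ± 0.45 (SE), adjusted p = 0.1). The other core protein gene, Uqcrc2, had 0 counts in 6 libraries and 51.91, 226.4 and 203.5 CPM at 96 h. Cytochrome c1 (Cyc1) had 59.68 and 73.31 CPM at 0 h and 103, 124.9 and 136.1 at 96 h, and the Rieske iron-sulfur protein gene Uqcrfs1 had 101.3 and 155.7 and 142, 161.5 and 140.7. Neither passed against 0 h at any time, although all 96h samples of Cyc1 lay above both 0h samples.

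The nuclear subunits of complex IV surround the 3 catalytic subunits made in the mitochondrion. Cox6c (ENSMUSG00000014313, chr15:35925886-35938246) was called lower at 4 of the 6 times. It had 580 and 524.7 CPM at 0 h, 184.1, 218.8 and 308.6 at 3 h, 178.6, 205 and 358.3 at 6 h, 294.2, 194.5 and 246.9 at 12 h. Later values were 226.4, 209 and 223.6 CPM at 18 h, 380 and 239.9 at 24 h and 575.6, 596.2 and 471.1 at 96 h. All samples from 3 to 24 h lay below 0 h, and the 96h samples lay around the 0h values. Its log2 fold change was -1.22 ± 0.29 (SE), adjusted p = 0.0244 at 3 h and -1.17 ± 0.29 (SE), adjusted p = 0.012 at 12 h, -0.01 at 96 h against 0 h, and 1.16 ± 0.27 (SE), adjusted p = 0.00918 between 12 and 96 h. An annotated copy, Cox6c2, held 10.6% of the summed counts of both. Copies also held 25.2% for Ndufs3, 16% for Cox5b, 13% for Cox7c and 6.1% for Uqcrb, so the levels of these genes are uncertain by that much.

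Cox8a had 599.8 and 656.8 CPM at 0 h, 357.9, 460.5 and 426.7 at 3 h, 331.3, 259.5 and 277.9 at 6 h, 552.5, 344.3 and 281.5 at 12 h. Later it had 395.5, 427.1 and 331.8 CPM at 18 h, 640.4 and 389.3 at 24 h and 784, 948.2 and 1010 at 96 h. Every sample from 3 to 18 h lay below 0 h and every 96h sample above it. The gene fell at 6 h (-1.12 ± 0.26 (SE), adjusted p = 0.0105), at 12 h (-0.68 ± 0.26 (SE), adjusted p = 0.0995) and at 18 h (-0.71 ± 0.26 (SE), adjusted p = 0.0923) and rose from 12 to 96 h (1.22 ± 0.24 (SE), adjusted p = 0.00267). The call at 12 h was lost with library sizes alone as the scaling (-0.58), without the filter (-0.74), with the date of the sample names in the fit (-0.69) and with only the 0h and 12h samples in the fit (-0.66). Because Cox8a moved in both directions, its promoter is shown from RefSeq, 250 bases before to 50 bases after the start of the gene on the minus strand of GRCm38.p6, chr19:7217567-7217866.
Cox8a promoter: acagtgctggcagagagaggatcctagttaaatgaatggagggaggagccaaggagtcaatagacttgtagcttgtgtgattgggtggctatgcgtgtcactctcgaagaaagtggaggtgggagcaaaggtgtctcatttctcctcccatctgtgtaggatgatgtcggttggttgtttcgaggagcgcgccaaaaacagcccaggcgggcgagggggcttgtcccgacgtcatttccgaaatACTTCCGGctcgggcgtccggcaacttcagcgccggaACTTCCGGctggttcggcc
The capitals mark ACTTCCGG, the other strand of CCGGAAGT, a core that ETS factors such as GABP bind. Their first bases lie at -6 and 32 from the start site. Of 32851 promoters of this length, 3.89% hold this core on either strand. For the other 2 motifs searched, 2.71% hold the NRF1 core GCGCATGC and 2.75% the YY1 core AAGATGGC, and neither was found in this window. Only 22 of the 32 nuclear genes had a promoter in the table, too few for a share over the group, so that check is void. Of these 22 genes, 2 held the ETS core. The promoters of Ndufa1, Ndufb5 and Cox7a2, which also rose from 12 to 96 h, held none of the 3 cores. A link between a core and the changes was not tested.

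Cox7a2 had 261.8 and 262.1 CPM at 0 h, 220.7, 211.8 and 218.7 at 12 h, 372.9 and 322.4 at 24 h and 350.4, 522.4 and 431.2 at 96 h. It was the one nuclear gene called higher at 96 h against 0 h (0.73 ± 0.23 (SE), adjusted p = 0.0561), with no overlap, and it also rose from 12 to 96 h (1.00 ± 0.20 (SE), adjusted p = 0.00301). Without the 96h sample of replicate 2 or of replicate 3, or without either 0h sample, the call against 0 h was lost. Cox7c had 567.4 and 646.3 CPM at 0 h, 208.3, 216.2 and 275.5 at 3 h, 530.7, 590 and 584.8 at 12 h and 467.2, 851.4 and 545.1 at 96 h. It fell at 3 h (-1.38 ± 0.30 (SE), adjusted p = 0.0131) and was back at 12 h, when it was higher than at 3 h (1.28 ± 0.28 (SE), adjusted p = 0.0055). Cox5b had 93.78 and 142.1 CPM at 0 h, 207.1, 192.3 and 119.8 at 12 h and 189.6, 236.8 and 204.7 at 96 h, and passed between 3 and 12 h (0.72 ± 0.26 (SE), adjusted p = 0.0914) but not against 0 h. For Cox5a the samples of 3 and 12 h differed many times over between replicates, with 131.4 and 110 CPM at 0 h, 6.966, 107.1 and 16.77 at 3 h, 48.64, 40.19 and 326.5 at 12 h and 311.4, 406.5 and 374.1 at 96 h. All 96h samples of Cox5a lay above 0 h, without passing the test (1.59 ± 1.18 (SE), adjusted p = 0.469).

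**Figure D5:**
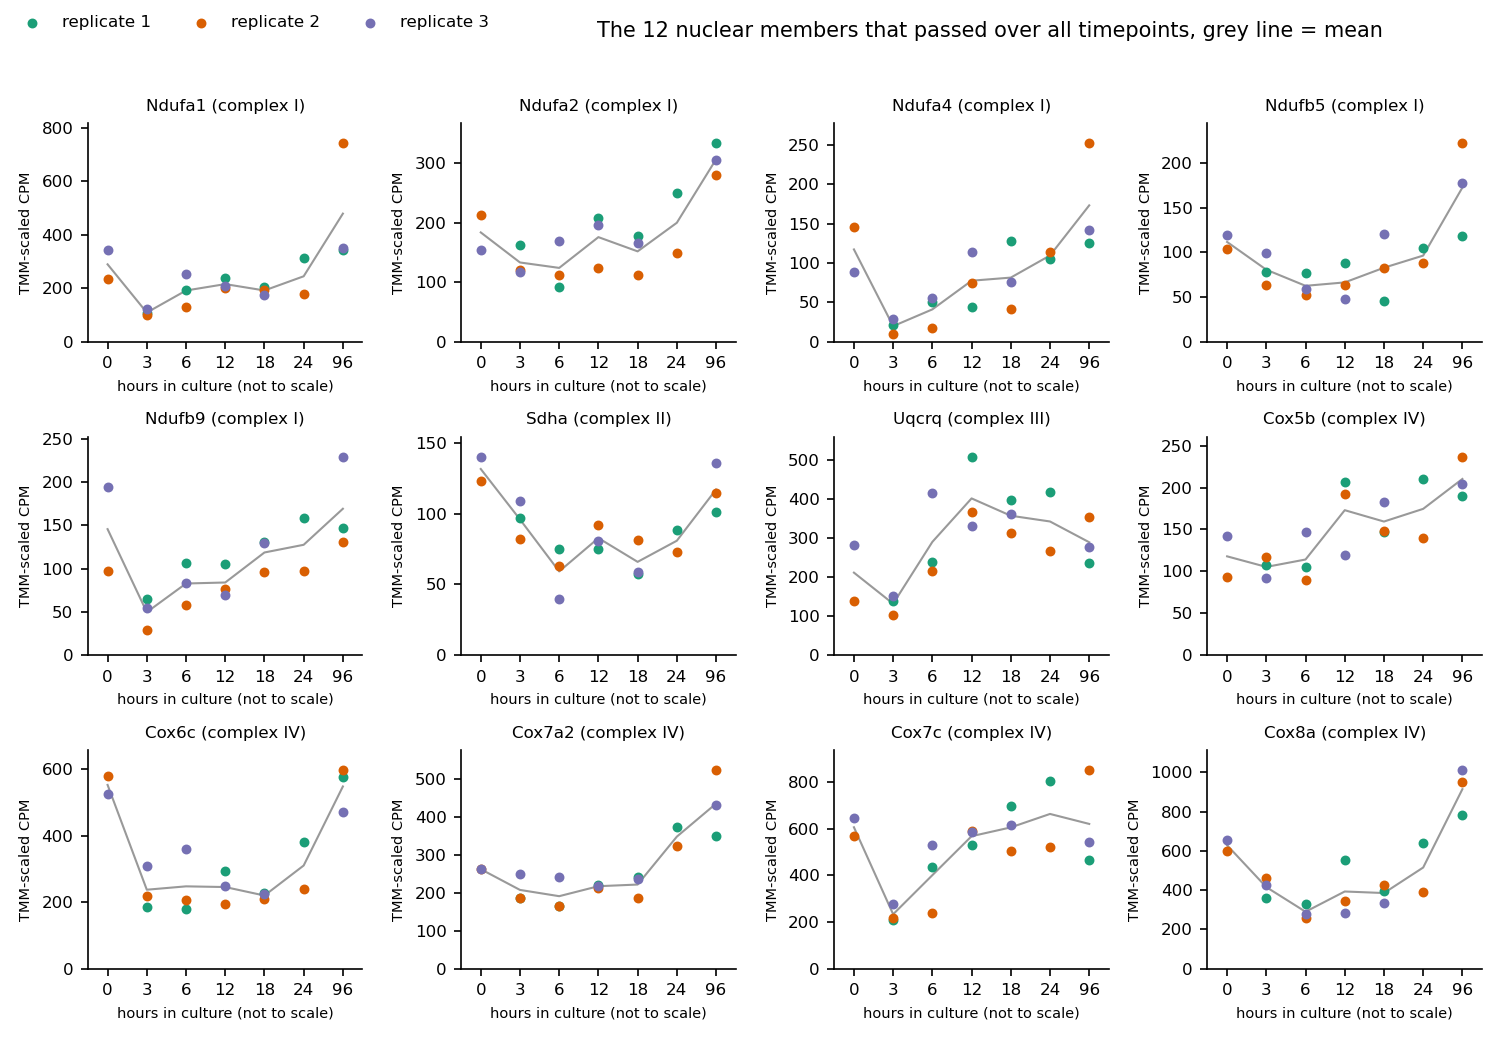
TMM-scaled CPM (vertical, linear from 0) of the 12 nuclear genes that differed over all timepoints at an adjusted p below 0.1, against hours in culture (horizontal, evenly spaced and not to scale), one point per sample colored by replicate number, with a grey line through the group means. Cox6c and Cox8a are low between 3 and 18 h, Ndufa1 and Ndufb9 are lowest at 3 h, and these genes are high again at 96 h. Uqcrq is highest at 12 h.

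Between 12 and 96 h, 7 of the 32 nuclear genes rose and 0 fell, where 7.74% of all genes were called higher and 7.74% lower. They were Ndufa1, Ndufa2, Ndufb5, Ndufb9 (1.01 ± 0.36 (SE), adjusted p = 0.0919), Cox6c, Cox7a2 and Cox8a, and the median over the 32 genes was 0.72, against 0.09 over all genes tested. For 14 of the 32 every 96h sample lay above every 12h sample, against 19.2% of all genes. Between 3 and 12 h, 5 rose and 0 fell (Ndufa1, Ndufa4, Uqcrq, Cox5b and Cox7c), with a median of 0.45 over the 32 genes and 7.89% of all genes called higher. Between 3 and 96 h, 13 rose and 0 fell, with a median of 1.15 over the 32 genes, where 7.51% of all genes were called higher. For 22 of the 32 every 96h sample lay above every 3h sample, against 20.8% of all genes. The 13 were Ndufa1, Ndufa2, Ndufa4, Ndufa10, Ndufb5, Ndufb9, Uqcrq and the complex IV genes Cox5a, Cox5b, Cox6c, Cox7a2, Cox7c and Cox8a. The comparisons with 3 h and with 12 h share those samples with the comparisons against 0 h or with each other, so their counts are not independent.

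Counts of 0 in at least 1 library were found for 8 nuclear genes. They were Ndufs8 (10 libraries), Uqcrc2 (6), Sdhb (4), Ndufa9, Ndufb10 and Sdhd (2 each), and Ndufb8 and Ndufv2 (1 each). Ndufs8, a core iron-sulfur subunit of complex I, had 48.14 and 0 CPM at 0 h, no counts at 18 h and 23.23, 31.38 and 21.39 CPM at 96 h. It was detected in every sample at 24 and 96 h, and in at most 1 sample at each earlier time. None of the 8 passed in any comparison with 0 h, and their biological coefficients of variation lay between 0.743 (Ndufv2) and 2.303 (Ndufs8). For Ndufs8 at 18 h, where every library was empty, the fitted fold change rests on the value assumed for an empty group. Ndufb8 had 135.4 and 132.6 CPM at 0 h, 68.73, 0 and 73.55 at 18 h and 132.8, 114 and 207.7 at 96 h, where the empty 18h library of replicate 2 stood apart from the other samples.

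The other genes of the pathway, taken from lists of subunits and factors chosen with earlier results of these data known, gave the following counts. Against 0 h, 1.52%, 4.68%, 9.58% and 8.79% of all genes were called lower after 3, 6, 12 and 18 h, and 9.78% higher after 12 h. Between 12 and 96 h 7.74% were called higher. Of 22 further complex I subunits, 4, 10 and 7 fell after 3, 6 and 12 h against 0 h. Between 12 and 96 h 11 of them rose, with a median change of 1.45. Ndufa3 had 85.5 and 140.6 CPM at 0 h, 111.6, 51.39 and 45.5 at 12 h and 287.1, 361.1 and 339.1 at 96 h, and rose from 12 to 96 h (2.24 ± 0.39 (SE), adjusted p = 0.00094). Of 8 tested further subunits of complexes III and IV, 3 fell at 12 h and 6 rose between 12 and 96 h, among them Cox6b1 (0.75 ± 0.19 (SE), adjusted p = 0.0188). Of 15 nuclear subunits of complex V, 4 fell at 6 h, 2 fell and 1 rose at 12 h, and 8 rose between 12 and 96 h, with a median of 0.95. Atp5j2 had 93.78 and 174.7 CPM at 0 h, 72.73, 63.77 and 45.37 at 12 h and 285.1, 370.2 and 331.7 at 96 h and rose between the last 2 times (2.44 ± 0.29 (SE), adjusted p = 3.03e-05). Of 37 tested assembly factors, 3 were called lower after 3 h, 1 after 6 h, 3 after 12 h and 1 after 18 h. Their median log2 fold change after 3 h was -1.26 (range -10.35 to 6.73). One of them, Coa5, fell at 3 h (-1.72 ± 0.38 (SE), adjusted p = 0.0131).

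The 2 ribosomal RNAs of the mitochondrion were lower in culture as well. They took 5.59 and 4.53% of all counts at 0 h, 4.04, 3.99 and 2.79% at 3 h, 2.06, 1.66 and 1.59% at 12 h and 3.05, 2.5 and 3.12% at 96 h. At 3 h mt-Rnr1 was not called (-0.20 ± 0.28 (SE), adjusted p = 0.85) and mt-Rnr2 was lower (-0.55 ± 0.17 (SE), adjusted p = 0.0838), and both were lower at 12 h (mt-Rnr1 -1.42, mt-Rnr2 -1.72 on the log2 scale) and higher at 96 than at 12 h (adjusted p = 0.0859 and 0.0123, log2 fold changes 0.73 and 0.63). Of the 14 tested genes of mtDNA transcription and replication, 1 was called higher at 12 h and 1 at 18 h against 0 h. Of all genes, 9.78% and 8.67% were called higher at these times. Tfam, the factor that packs mtDNA and starts its transcription, had 40.87 and 26.11 CPM at 0 h, 41.14, 50.34 and 60.33 at 3 h, 57.84, 64.42 and 110.2 at 6 h, 99.6, 109.7 and 159.6 at 12 h. It then had 81.89, 119 and 106.1 CPM at 18 h, 45.49 and 77.9 at 24 h and 15.77, 30.22 and 12.13 at 96 h. Every 12h sample stood above every 0h and every 96h sample. It was higher at 12 h (1.87 ± 0.46 (SE), adjusted p = 0.011), when all 13 mtDNA genes were lower, and lower at 96 h than at 12 h (-2.66 ± 0.41 (SE), adjusted p = 0.000354). The mitochondrial RNA polymerase gene Polrmt had 12.79 and 0 CPM at 0 h and 52.35, 29.85 and 69.52 at 12 h and was not called (2.95 ± 1.65 (SE), adjusted p = 0.26).

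Other groups around the chain moved the other way or in part. Of 17 markers of mitochondrial mass and protein import, 1, 9, 11, 12, 10 and 11 rose after 3, 6, 12, 18, 24 and 96 h against 0 h, and 0 fell. Of all genes, 4.67%, 7.91%, 9.78%, 8.67%, 6.12% and 6.59% were called higher at these times. Their median log2 fold change after 12 h was 1.25. Hspa9, the chaperone that pulls proteins into the matrix, had 111.3 and 107 CPM at 0 h, 192.7, 292.4 and 277 at 3 h, 697.1, 842.1 and 985.7 at 6 h, 1017, 1578 and 1516 at 12 h. Later values were 1137, 1402 and 1204 CPM at 18 h, 542.4 and 813.9 at 24 h and 235.4, 319.7 and 223.5 at 96 h. Every cultured sample stood above both 0h samples, with a change of 3.65 ± 0.29 (SE), adjusted p = 5.84e-07 at 12 h and 1.25 ± 0.26 (SE), adjusted p = 0.00526 at 96 h. Of 20 genes of mitochondrial RNA processing and stability, 4 rose and 0 fell at 12 h (9.78% of all genes higher), and 2 rose and 0 fell at 96 h (6.59% higher), among them Rexo2, an exonuclease for short RNA (1.94 ± 0.34 (SE), adjusted p = 0.00142). Lrpprc, which stabilizes mitochondrial messengers, had 0 counts in 4 libraries and was not called (0.76 ± 2.08 (SE), adjusted p = 0.894 at 12 h).

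Of 11 regulators of mitochondrial gene programs, 8 were tested, and 2 rose at 12 h and 4 at 18 h against 0 h, where 9.78% and 8.67% of all genes were called higher. Pprc1, a coactivator of the PGC-1 family, had 15.55 and 10.54 CPM at 0 h, 59.05, 51.54 and 58.81 at 3 h, 88.49, 96.5 and 114 at 12 h, 33.88, 43.87 and 75.04 at 18 h and 33.55, 8.47 and 20.04 at 96 h. All samples of 3, 12 and 18 h stood above 0 h, and its change was 2.92 ± 0.54 (SE), adjusted p = 0.00142 at 12 h against 0 h and -2.27 ± 0.45 (SE), adjusted p = 0.00284 between 12 and 96 h. Nrf1, a factor for nuclear respiratory genes, was called higher at 18 h (1.49 ± 0.54 (SE), adjusted p = 0.0858). Ppargc1a, which encodes PGC-1α, had no counts in 18 of the 19 libraries and was not tested. Of 14 genes of the TCA cycle, 3 rose and 4 fell at 12 h (9.78% of all genes higher, 9.58% lower), among the latter Ogdh (-1.82 ± 0.42 (SE), adjusted p = 0.00735), which was higher again at 96 h than at 12 h (2.11 ± 0.39 (SE), adjusted p = 0.00185).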

How the data were processed

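Libraries of 3′ tags were made from RNA of 19 samples of mouse hepatic stellate cells with a QuantSeq 3′ mRNA kit. Reads were aligned by the authors to GRCm38.p6 with STAR, and StringTie is named in their methods. The counting tool and the handling of reads matching several places are not given in the sources used here. The deposited values are raw counts per gene and sample, with no normalization.

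Symbols were taken from the GENCODE M21 annotation, which matched 55141 of the 55487 rows. Counts were filtered with filterByExpr of edgeR 4.0.16 (R 4.3.3, limma 3.58.1), scaled by TMM, and fitted over all 7 times with the 2-sided quasi-likelihood test of edgeR, with Benjamini-Hochberg adjustment over the 15138 genes tested and a threshold of 0.1. Fold changes are log2 with their SE. Copies and overlaps were found from the annotated transcripts with Python 3.11.15 (numpy 2.4.6, pandas 2.3.3), and figures were drawn with matplotlib 3.10.9. The same steps were tested on simulated data.

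Groups came from the labels. The members and gene lists were chosen with earlier results of these data known. All mtDNA genes are named. The rule named, per nuclear complex, the gene with the smallest p over all times and the highest and lowest log2 fold change at 12 and 96 h, and per list the gene with the smallest p among those with a mean of at least 10 CPM, with 5 regulators and 7 cell type markers whatever their values. Ndufa4, Ndufb5, Ndufb9, Ndufb8, Sdhc, Cyc1, Uqcrfs1, Cox7a2 and Cox7c were added after their values were seen. Alternatives were library sizes alone, no filter, DESeq2 1.42.0, only the 2 groups compared, thresholds of 0.05 and of 2-fold, the mitochondrial genes left out of the scaling, the copies added, the replicate number as a block, the date in the sample names, and each sample left out. The copies, the values within a replicate number and the comparisons with 3 h were added after seeing the data.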

Additional observations from a re-analysis of the deposited data

Results flagged for a closer look

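For 10 genes the effect of culture against 0 h differed between 12 and 96 h by the direct test of 96 h against 12 h (edgeR, adjusted p below 0.1). For the mtDNA-encoded genes the log2 fold change between these times was 0.73 for mt-Nd1, 0.66 for mt-Nd6 and 0.58 for mt-Co1. All 3 were lower than at 0 h at both times, and the difference is one of size. For the nuclear genes it was 1.15 for Ndufa1, 0.80 for Ndufa2, 1.38 for Ndufb5, 1.01 for Ndufb9, 1.16 for Cox6c, 1.00 for Cox7a2 and 1.22 for Cox8a. Among these 7, Cox6c and Cox8a were called lower than 0 h at 12 h and neither was called at 96 h. Groups of 2 or 3 samples are too small for a check of single samples that stand apart.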

How the results depend on the processing

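All 13 mtDNA-encoded genes were called against 0 h at 12, 18, 24 and 96 h under each alternative that kept all samples. At 3 h between 9 and 13 and at 6 h 12 or 13 were called under these, 9 at an adjusted p below 0.05. Leaving out 1 sample, the number called ranged from 7 to 12 in the 3h comparison and from 11 to 12 in the 6h comparison, and was 12 or 13 at later times. At 96 against 12 h, DESeq2 called 5, where it called 3315 of all 15138 genes, and a required fold above 2 left 0. Nuclear calls depended more on the setting. DESeq2 called 12, 6, 7 and 2 of the 32 after 6, 12, 18 and 24 h. Of all 15138 genes it called 2944, 3805, 3464 and 2478 in either direction at these times. With only the groups compared in the fit, 1 was called after 6 h, 4 after 96 h and 11 between 12 and 96 h. These fits called 1649 of 11542, 2501 of 12261 and 2763 of 10934 genes tested, in either direction. At 12 h, 1 was called without the filter, at an adjusted p below 0.05 and with a required fold above 2, which also left 1 at 18 h. At 96 h, 2 were called with library sizes alone (1920 of all 15138 genes), and 0 without the filter, at 0.05 or with the required fold. Leaving out 1 sample gave between 2 and 5 nuclear calls after 3 h, 2 and 6 after 6 h, 1 and 2 after 12 h, and 0 and 1 after 96 h. A 0h group left with 1 sample is assumed to vary like the others. The cause was not tested.

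The labels do not say what a shared replicate number stands for. Deviations of same-numbered samples from their group means had a mean correlation of 0.014 (51 pairs), against -0.007 for different numbers (103 pairs). Of the 19 samples, 13 correlated best with their own number, so pairing is not excluded. The main fit nonetheless did not take the samples as paired. With the number as a block, 13 mtDNA genes were called at each time and 3 at 96 against 12 h, and nuclear calls were 5, 5, 4, 4, 0 and 1 from 3 to 96 h, 14 over all times and 7 at 96 against 12 h. The block fit called 892, 1859, 2745, 2436, 1433 and 1699 of all 15138 genes from 3 to 96 h, in either direction. Between 12 and 96 h it called 2144. With this block, no named call changed, while 2 uncalled values changed sign (Uqcrc2 at 12 h, 3.01, and Rexo2 at 12 h, -0.07). The log2 ratio of summed counts changed by -1.36 at 18 h when taken from mean log2 CPM. Among samples of 1 number it changed by -0.41 at 6 h and -2.42 at 96 h (number 2), and by -1.65 at 12 h and -1.67 at 18 h (number 3). With the copies, the mtDNA share of counts changed by -6.14, -6.64, -7.77, -7.84, -7.89 and -7.0 percentage points from 3 to 96 h.

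Other reversals were all in uncalled log2 fold changes against 0 h. With library sizes alone these were Ndufa2 at 12 h (0.04) and, at 96 h, Uqcrc1 (0.06), Cox6c (0.14, and 0.01 with copies) and Coa5 (0.08). With DESeq2 they were Ndufs8 at 96 h (-0.07) and, at 12 h, Cox5a (-0.04), Cox6b1 (-0.17) and Rexo2 (-0.19). Without the filter they were Cox6b1 (-0.0) and Rexo2 (-0.02), which was also -0.02 with the date of the sample names. Leaving out 1 sample, the ranges at 12 h were -0.3 to 0.19 for Ndufa2, -9.87 to 6.22 for Ndufs8, -0.02 to 2.51 for Sdhb, -1.4 to 10.8 for Uqcrc2, -1.44 to 0.62 for Cox5a, -0.05 to 0.15 for Cox6b1, -0.08 to 0.21 for Rexo2 and -0.25 to 11.76 for Lrpprc. At 96 h they were -0.93 to 9.96 for Ndufs8, -0.29 to 0.16 for Uqcrc1, -0.09 to 0.09 for Cox6c, -0.23 to 0.06 for Coa5, -0.08 to 0.79 for Ogdh, -0.05 to 11.98 for Lrpprc and -0.98 to 0.25 for Nrf1. Library sizes alone moved the median of all genes to 0.24 at 24 h and 0.22 at 96 h. DESeq2 moved it to -0.13, -0.15 and -0.10 at 6, 12 and 18 h. At this depth a gene below about 1.51 CPM could not be told from absence in the shallowest library.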
